A study of Rattus norvegicus with 6 samples.

Results

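The comparison described here set spinal cord of SOD1 G93A rats killed at disease onset against cord of wild-type littermates matched to that stage. SOD1 G93A rats carry a mutant superoxide dismutase 1 gene and are a model of amyotrophic lateral sclerosis, the disease in which motor neurons of the cord degenerate. All animals were female Sprague-Dawley rats. RNA of 5 rats was pooled for each array, and 1 Illumina BeadChip was hybridized for the onset mutant pool and 1 for the onset wild-type pool. A presymptomatic mutant pool, an end-stage mutant pool and their wild-type pools complete the 6 arrays, and the 3 wild-type pools served as the background spread. Every sample is labelled with an age of 10 weeks, an age that the design text gives to the presymptomatic stage, so the ages of the onset rats are not known here. The titles name lumbar cord and a second label names thoracic cord. The labels give neither the promoter of the transgene nor the rat line. A pool of 5 rats gives no spread between animals, and with 1 array per genotype and stage no difference within the onset pair has a replicate.

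The members are the probes with a detection p below 0.01 on at least 1 of both onset arrays, 11190 of 22226 probes. Of these, 9885 were detected on both arrays, 699 on the mutant array alone and 606 on the wild-type array alone. They named 7940 of the 12978 genes with a named probe, 7139 of them detected on both arrays, 442 on the mutant array alone and 359 on the wild-type array alone, and 3192 member probes carried no gene name. The 252 probes just inside the threshold had a median intensity of 15.8 on the brighter of both arrays, and the 427 just outside it had 14.8.

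Motor neurons of the ventral horn release acetylcholine onto muscle, and their long axons are rich in neurofilament. When they are injured, microglia, the resident phagocytes of the cord, multiply and switch on receptors, lysosomal enzymes and complement, while astrocytes become reactive. In SOD1 mutant rodents this glial response is well known around the time that weakness appears. Oligodendrocytes and other glia of the cord make most of its cholesterol locally. RNA from whole cord mixes all these cells, so fewer cells of a type and less RNA per cell cannot be told apart.

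Probe IDs were out of order in the deposited tables, and gene names below rest on the IDs sorted as text. With sorted IDs 1.84% of 1304 probes for sensory receptors, which cord should lack, were detected on both onset arrays, whereas 90.9% of the 165 probes for housekeeping genes (ribosome, proteasome, respiration) were. In the deposited ID order these shares were 44.4% and 45.5%. Between 9116 probes (presymptomatic mutant) and 10942 probes (presymptomatic wild type) were detected per array, with 10584 on the onset mutant and 10491 on the onset wild-type array. Defining markers of neural tissue were present, and 8 of 11 posterior Hox genes, which mark the caudal body axis, were detected, with the neuronal gene Snap25 at intensities of 6257 in the onset mutant and 8224 in the onset wild-type pool and the myelin gene Mog at 2345 and 2730. The rat Sod1 probe read 7417 in the onset mutant and 7300 in the onset wild-type pool, with 8864 and 7446 in the presymptomatic and end-stage mutant pools and 6923 and 8822 in their wild-type pools. That probe is for the rat gene and does not check the transgene. Gfap, Chat and Csf1r are not analysed here.

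In the onset pair, 288 genes (3.63% of 7940) exceeded the wild-type level in the mutant pool by 2-fold or more, and 46 (0.579%) lay below it by as much. These folds are on the scale of log2 normalized intensity with an offset of 16, which understates the differences of dim genes, whereas intensities are given in the deposited units. The median difference over all 7940 genes was −0.04 on that scale. Counted alike, 1.92% of genes were 2-fold apart between the onset and presymptomatic wild-type pools, 2.1% between the onset and end-stage wild-type pools and 3.54% between the presymptomatic and end-stage ones, against 4.21% in the onset pair. A like imbalance of 142 genes higher and 22 lower by 2-fold or more held between the onset and end-stage wild-type pools, and of 230 and 54 between the presymptomatic and end-stage ones, so an excess of higher genes is not particular to the mutant pool.

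Set against all 3 wild-type pools, the onset mutant pool was higher than each of them by at least 2-fold in 212 genes (2.67%) and lower than each by at least 2-fold in 14 genes (0.176%). By the same margin the presymptomatic, onset and end-stage wild-type pools each stood above the other wild-type pools in 0.466%, 0.214% and 0.0252% of genes, and below them in 0.202%, 0.0252% and 0.995%. In limma, one fit over the 6 arrays and 12711 probes found 87 probes higher in the onset mutant pool (0.684%) and 0 lower (0%) at an adjusted p below 0.05, and 1592 probes (12.5%) had an unadjusted p below 0.05. The 87 probes named 71 genes (0.894% of 7940), and below a gene is said to have risen where limma called it. Of these, 64 were detected on both onset arrays and 7 on the mutant array alone (Cd8a, Cd8b, Clec7a, Lpar3, Lrrc15, Mmp12 and Sectm1b). Those 7 became members through the onset mutant array alone, a filter that favours genes higher there. Their values are given as a description, without adjusted p-values. The lone onset mutant pool was assumed to vary as the wild-type pools do, with 2 residual degrees of freedom. These calls depended on the background correction and on a wild-type pool: none remained with neqc's inferred noise, with no background correction, without the filter on dim probes or without the onset wild-type pool. There were 21 without the end-stage and 49 without the presymptomatic wild-type pool, and 25 to 248 were made under the other ways of scaling, of which those from the authors' normalized values (248) shared 20 with the 87.

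**Figure D1:**
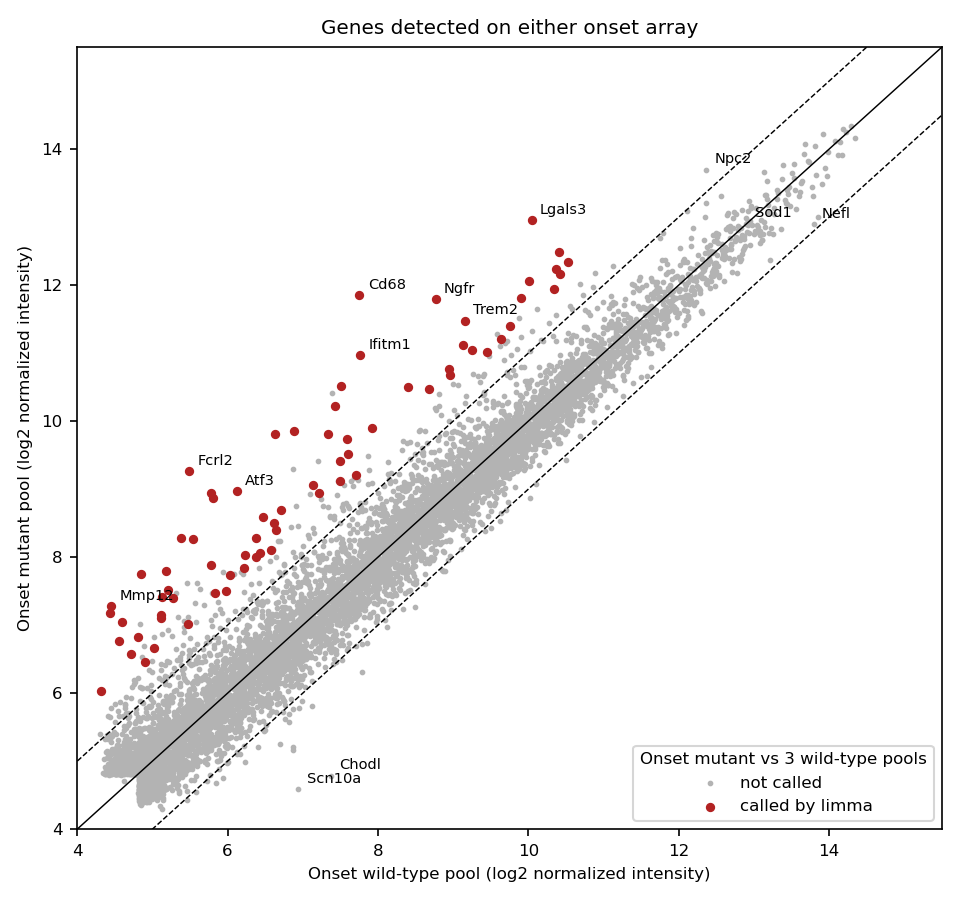
Level of each of the 7940 genes in the onset mutant pool (vertical axis) against the onset wild-type pool (horizontal axis), both as log2 normalized intensity. The solid line marks equal levels, the dashed lines 2-fold, and red points the 71 genes called by limma against the 3 wild-type pools, all of which lie above the upper dashed line; Cd68 and Fcrl2 lie farthest from it, while Sod1 lies on the line of equality.

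Genes of phagocytes were among the largest differences, and Cd68 and Fcrl2 were the largest of all genes detected on both arrays. Cd68, a lysosomal membrane protein of macrophages and activated microglia, had an intensity of 3449 in the onset mutant pool, against 222 in the onset wild-type pool and 132 and 172 in the presymptomatic and end-stage wild-type pools. It was 17.2-fold higher within the onset pair, and rose by 4.34 ± 0.30 on the log2 scale against the 3 wild-type pools (SE, limma, adjusted p = 0.0122). Fcrl2, an Fc receptor-like gene, had 608 in the onset mutant pool, against 36.4, 17.9 and 23.5 in the onset, presymptomatic and end-stage wild-type pools, and was 13.6-fold higher in the pair (limma 3.98 ± 0.28, adjusted p = 0.0122). For both genes no wild-type pool came near the mutant value, and the presymptomatic mutant pool, at 203 for Cd68 and 20.9 for Fcrl2, lay near the wild-type pools. Folr2, a folate receptor of macrophages, read 901 in the onset mutant pool, against 117 in the onset wild-type pool and 45.7 and 44.8 in the other wild-type pools (7.80-fold). Its wild-type pools were themselves unequal, and it rose in limma (3.63 ± 0.43, adjusted p = 0.0282).

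Trem2, a lipid-sensing receptor of microglia, and Tyrobp, the adaptor through which it signals, rose together. Trem2 had 2715 in the onset mutant pool, against 583, 576 and 735 in the onset, presymptomatic and end-stage wild-type pools, a 4.99-fold difference in the pair (limma 2.17 ± 0.27, adjusted p = 0.0297). Tyrobp had 878, against 164, 146 and 145, a 5.54-fold difference (2.47 ± 0.22, adjusted p = 0.0123). The tyrosine kinase gene Syk, which acts below such receptors, read 104 in the onset mutant pool and between 19.4 and 20.8 in the wild-type pools, and rose by 1.56 ± 0.23 (adjusted p = 0.0417). Clec7a, the beta-glucan receptor dectin-1, was detected in the onset mutant pool (97.2) and not in the onset wild-type pool (11.01), an excess of at least 3.53-fold. A bound of this kind sets the bright value against the dim array's own value or its lowest detected signal, whichever is higher. Of 31 genes listed for phagocyte receptors and adaptors that had a named probe, 27 were members. Among these 17 were at least 2-fold higher, beside 3.63% of all genes, and 0 lower, with 8 called as risen in limma, beside 0.894%. Without the 5 detected on the mutant array alone, 16 of 22 were at least 2-fold higher and 7 rose. The median difference of the 27 was 1.34, beside −0.04 over all genes, but 0.35 with neqc's noise. Besides those named, Laptm5, Cd53 and Ptpn6 rose by 1.76, 1.75 and 1.56 on the log2 scale (SE 0.25, 0.23 and 0.23), while the integrin genes Itgb2 and Itgam, at differences of 2.18 and 1.90 in the pair, did not pass (adjusted p = 0.055 and 0.101).

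Genes that mark disease-associated microglia in mice were uneven. Of those measured, 19 were detected on both onset arrays, and 9 of these were at least 2-fold higher. A further 3, Clec7a among them, were detected on the mutant array alone. Of 22 members, 10 were higher and 1 lower by 2-fold or more, beside 3.63% and 0.579% of all genes. Among the 22, 8 rose, beside 0.894% of all genes, and 7 of the 8 were detected on both arrays. The median was 0.77 (0.34 with neqc's noise). Lgals3, which encodes galectin-3, had 7635 in the onset mutant pool, against 1059, 726 and 671 in the onset, presymptomatic and end-stage wild-type pools (limma 3.29 ± 0.30, adjusted p = 0.0123). Gpnmb, a transmembrane glycoprotein of phagocytes, read 145, against 23.6, 13.4 and 22.6 (2.01 ± 0.28, adjusted p = 0.0379), and Lgals3bp and the aspartic protease gene Ctsd rose by 2.11 and 2.06. Apoe, the lipid carrier, was bright in every pool, at 18297 in the onset mutant pool and 12848 to 16371 in the wild-type pools, and differed by 0.25 ± 0.23 (adjusted p = 0.718). Lpl, lipoprotein lipase, went the other way within the pair, with 345 in the mutant and 693 in the wild-type pool, but the end-stage wild-type pool read 317.

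Markers of resting microglia were mostly higher too, and Fcrl2, which is one of them, rose. Of 12 members of that list, 10 were higher and 2 lower in the onset mutant than in the onset wild-type pool, beside 46% and 53.9% of all genes, and the median was 0.84 (0.22 with neqc's noise). The allograft inflammatory factor gene Aif1, which encodes Iba1, had 4369.8 in the onset mutant pool, against 1882, 1675 and 1577 in the onset, presymptomatic and end-stage wild-type pools, at the edge of the threshold (1.43 ± 0.23, adjusted p = 0.0578). The purinergic receptor gene P2ry12 read 198, against 115, 66.4 and 64.2, a difference of 1.06 ± 0.30 that did not pass (adjusted p = 0.218), and 80.7 in the end-stage mutant pool. The fractalkine receptor gene Cx3cr1 was detected in the onset mutant pool (52.2) and not in the onset wild-type pool (13.3). Tmem119 was close to the detection limit everywhere, at 23.5 in the onset mutant and 18.0 in the onset wild-type pool. The summed intensity of the list was 6192 in the onset mutant pool, against 2010 to 2474 in the wild-type pools. Aif1 made up most of that sum in each of these pools. The lower members were Entpd1 (−0.29) and Tgfbr1 (−0.34), and Sall1 differed by 0.26. Of the 12, 2 were detected on the mutant array alone and 1 on the wild-type array alone. The part of microglial markers in the results above was not tested.

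**Figure D2:**
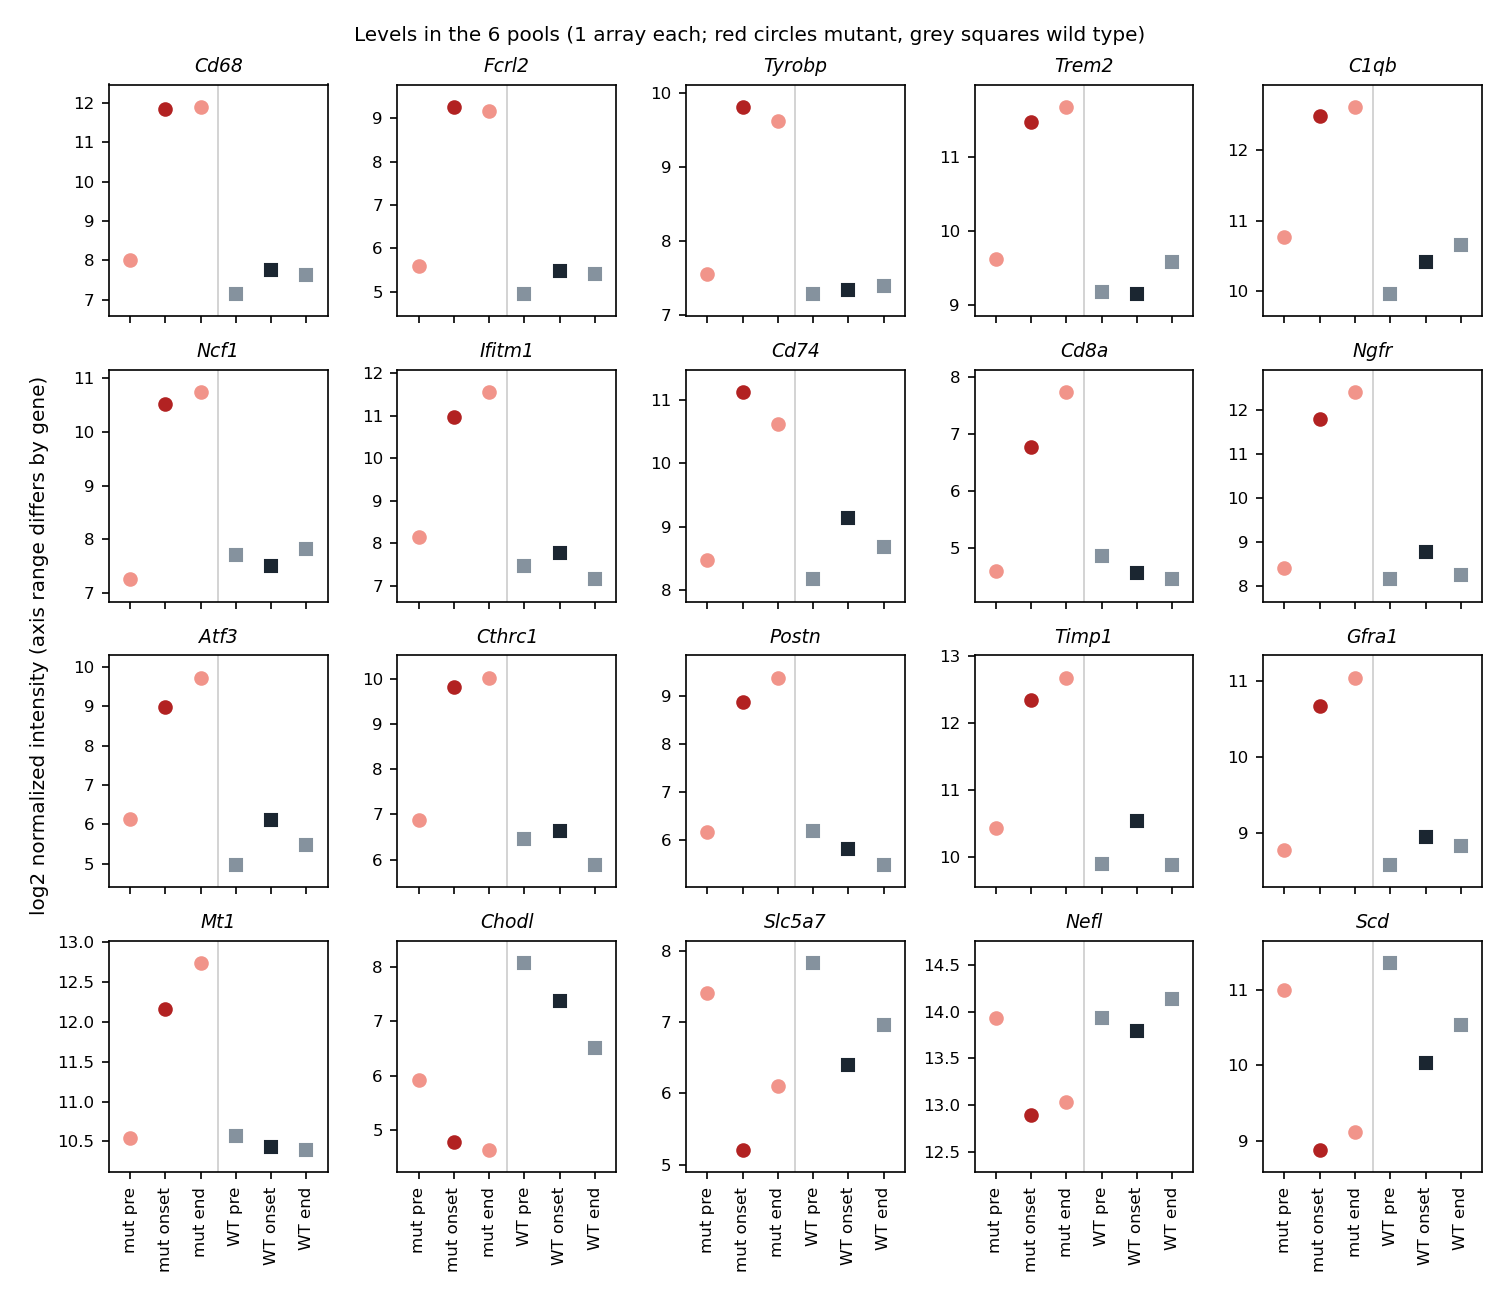
Log2 normalized intensity of 20 genes in the 6 pools, 1 array each, with mutant pools (red circles; presymptomatic, onset, end stage) left of wild-type pools (grey squares; same order). The first 16 genes are higher in the onset and end-stage mutant pools than in every wild-type pool, whereas Chodl, Slc5a7, Nefl and Scd are lower in the onset mutant pool than in every wild-type pool.

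Complement genes, which tag debris and synapses for uptake by phagocytes, were higher throughout the first steps of the classical pathway. The 3 chains of C1q all rose. C1qa had 3991 in the onset mutant pool, against 1026, 827 and 1112 in the onset, presymptomatic and end-stage wild-type pools (limma 2.11 ± 0.26, adjusted p = 0.0305). C1qb had 5533, against 1354, 998 and 1590.3 (2.14 ± 0.31, adjusted p = 0.0381), and C1qc 2027, against 618, 464 and 613 (1.90 ± 0.27, adjusted p = 0.0379). The 3 chains thus differed by close to the same amount in the pair, C1qa by 4.16-fold, C1qb by 4.21-fold and C1qc by 3.48-fold. Further down the pathway C4b (3.23-fold, adjusted p = 0.0731), C2 (2.80-fold, 0.0574) and the inhibitor gene Serping1 (2.20-fold, 0.163) were above all 3 wild-type pools without passing. Cfd, the alternative pathway protease adipsin, rose by 2.27 ± 0.25 (adjusted p = 0.0239), with 1414 in the onset mutant pool and 260 to 348 in the wild-type pools. In all, 15 of 16 complement genes with a named probe were members. At least 2-fold higher were 8 of them, beside 3.63% of all genes, and 0 were lower. In limma 4 rose, beside 0.894% of all genes. The median of the 15 was 1.14, and 13 of 15 lay above all 3 wild-type pools, beside 29.4% of all genes. The 15 include 3 detected on the mutant array alone. Of the 12 detected on both arrays, 7 were at least 2-fold higher.

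The phagocyte oxidase, which makes superoxide in the phagosome, was represented by 5 genes, all higher. Ncf1, its organizing cytosolic subunit p47phox, had 1420 in the onset mutant pool, against 186, 201 and 200 in the onset, presymptomatic and end-stage wild-type pools (8.02-fold in the pair; limma 2.84 ± 0.24, adjusted p = 0.0123). Cyba, the membrane subunit p22phox, rose by 1.81 ± 0.25 (adjusted p = 0.0379). Its catalytic partner gene Cybb was detected in the onset mutant pool (71.9) but not in the onset wild-type pool (12.7), at least 2.63-fold higher. Cybb was not called by limma. Cybb read 9.75 in the end-stage mutant pool.

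Lysosomal genes were higher as a group but less so than the receptors. Of 42 members, 33 were higher and 9 lower, beside 46% and 53.9% of all genes. By 2-fold or more, 10 were higher, beside 3.63% of all genes, and 0 lower. In limma 3 rose (Cd68, Ctsd and Laptm5), beside 0.894% of all genes. The median was 0.52 (0.28 with neqc's noise). The cholesterol transfer protein gene Npc2 was among the brightest, with 12529 in the onset mutant pool, against 5123, 6138 and 7256 in the onset, presymptomatic and end-stage wild-type pools (adjusted p = 0.148). The progranulin gene Grn read 2207, against 850.0, 617 and 844 (2.75-fold, adjusted p = 0.0728).

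Of 8 members that load or work with MHC class II molecules in antigen-presenting cells, 3 rose, beside 0.894% of all genes. The invariant chain gene Cd74 had 2129.9 in the onset mutant pool, against 573, 286 and 384 in the onset, presymptomatic and end-stage wild-type pools (limma 2.45 ± 0.37, adjusted p = 0.0455). Ifi30, the lysosomal thiol reductase, had 837, against 196, 198 and 192, which are nearly equal wild-type values (2.06 ± 0.23, adjusted p = 0.0251). RT1-DMb, a subunit of the peptide exchange factor, rose by 1.77 ± 0.25 (adjusted p = 0.0379). The other subunit gene, RT1-DMa, did not pass at 827 in the onset mutant pool, against 330.3, 355 and 376 (2.61-fold, adjusted p = 0.0965), nor did the cathepsin gene Ctss (1.80-fold, adjusted p = 0.154). All 8 class II members were higher, beside 46% of all genes, 4 of them by 2-fold or more, beside 3.63%. Their median was 1.12, whereas the 17 class I members had a median of 0.35, 3 at least 2-fold higher and 0 called by limma. Of the 8 class II members, 2 were detected on the mutant array alone, and 4 of the 6 detected on both arrays were at least 2-fold higher. Names of RT1 genes are uncertain to the extent that near-identical copies share a probe.

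Most interferon-induced genes that were detected were higher, though the wild-type pools were also unequal for them. Ifitm1, a membrane protein that restricts viruses, had 1917 in the onset mutant pool, against 224, 171 and 117 in the onset, presymptomatic and end-stage wild-type pools (9.20-fold in the pair; limma log2 difference 3.50 ± 0.29, adjusted p = 0.0123). The chemokine gene Cxcl9, which draws T cells, had 1159, against 175, 104 and 78.4 (3.27 ± 0.34, adjusted p = 0.0202). Sectm1b was detected at 153 in the onset mutant pool and lay between 0.405 and 1.80 in the wild-type pools, at least 5.35-fold higher in the pair. For Ifitm1 and Cxcl9 the onset wild-type pool was the highest of the wild-type pools, and the mutant pool exceeded it. Gbp2, a GTPase of host defence, read 932, against 249.8, 151 and 167 (2.28 ± 0.28, adjusted p = 0.0305). Of 35 interferon-list genes with a named probe, 26 were members. Isg15, Ifit1, Ifit2, Usp18 and others were detected on neither onset array. Among the 26, 22 were higher, beside 46% of all genes, 9 of them by 2-fold or more, beside 3.63%, and 0 lay 2-fold below. Sectm1b was 1 of the 4 that rose, beside 0.894% of all genes. The median of the 26 was 0.67. In the median of the same list, the onset wild-type pool itself lay 0.47 above the presymptomatic and 0.36 above the end-stage wild-type pool. Of the 26, 2 were detected on the mutant array alone, Sectm1b among them. Of the 24 detected on both arrays, 8 were at least 2-fold higher.

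Promoter sequences are shown for 3 interferon-list members that hold the core of the interferon-stimulated response element, GAAA and a second GAAA 2 bases further on, on either strand, and that had the largest differences among such members. The sequence is the 250 bases before the gene's start, read along the gene's strand, from RefSeq with build GRCr8, and capitals mark the match.
Gbp2, chr2:234005477-234005726, plus strand: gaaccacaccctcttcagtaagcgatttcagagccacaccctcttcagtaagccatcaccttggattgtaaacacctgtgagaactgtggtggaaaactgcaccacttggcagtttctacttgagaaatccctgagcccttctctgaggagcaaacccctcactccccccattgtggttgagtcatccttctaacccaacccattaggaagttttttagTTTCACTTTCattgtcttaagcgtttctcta
Cxcl10, chr14:15988816-15989065, plus strand: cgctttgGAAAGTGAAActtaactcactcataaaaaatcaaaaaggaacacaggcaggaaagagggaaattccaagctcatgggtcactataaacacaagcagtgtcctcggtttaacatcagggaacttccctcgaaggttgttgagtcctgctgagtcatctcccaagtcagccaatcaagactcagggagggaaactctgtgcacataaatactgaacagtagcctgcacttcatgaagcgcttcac
Irf7, chr1:205800024-205800273, minus strand: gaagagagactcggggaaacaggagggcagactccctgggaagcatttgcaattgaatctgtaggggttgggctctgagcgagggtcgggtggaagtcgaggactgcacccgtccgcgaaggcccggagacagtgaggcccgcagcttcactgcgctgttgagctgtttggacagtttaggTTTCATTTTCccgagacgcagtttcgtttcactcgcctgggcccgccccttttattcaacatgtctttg
In Gbp2 and Irf7 the match lies on the opposite strand and begins 31 and 69 bases before the start, and in Cxcl10 it lies on the gene's strand and begins 243 bases before it. The core was in 11 of the 20 measured interferon-list members with a promoter in the table (55%), beside 3.41% of all 33469 promoters. The 11 members with the core had a median onset difference of 0.66, and those without it 0.86, so holding the core did not go with a larger difference here. Cxcl10, a chemokine, was at 531 in the onset mutant pool, against 190.3, 74.7 and 68.8 in the onset, presymptomatic and end-stage wild-type pools (adjusted p = 0.0998). Irf7, the transcription factor that amplifies the interferon response, was at 437, against 199, 92.1 and 83.5 (adjusted p = 0.135).

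Other chemokines and cytokines were mixed. The B cell chemokine gene Cxcl13 had 1311 in the onset mutant pool, against 170.0, 23.4 and 68.0 in the onset, presymptomatic and end-stage wild-type pools, an 8.07-fold difference in the pair. It did not pass in limma (4.07 ± 0.74, adjusted p = 0.0787), since the wild-type pools differed widely. The monocyte chemokine gene Ccl2 rose by 2.69 ± 0.39 (adjusted p = 0.0381), and Tgfb1, which encodes transforming growth factor beta 1, by 1.86 ± 0.28 (adjusted p = 0.0473). Of 26 chemokine and receptor genes 5 were at least 2-fold higher and 0 lower (median 0.28, and 0.04 with neqc's noise). Of 30 cytokine and receptor genes 6 were higher by as much (median 0.47, and 0.09 with neqc's noise), beside 3.63% of all genes. In these lists 4 and 5 members were detected on the mutant array alone. The interleukin 1 beta gene Il1b, by contrast, stood at 42.4 in the onset mutant pool and 26.9 to 33.7 in the wild-type pools (adjusted p = 0.882).

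Both chains of CD8, the coreceptor of cytotoxic T cells, were detected in the onset mutant pool and not in the onset wild-type pool. Cd8a read 112 in the onset mutant pool and 5.90, 15.3 and 1.35 in the onset, presymptomatic and end-stage wild-type pools. It was at least 4.03-fold higher in the pair. Cd8b read 64.8, against −6.68, 3.66 and −3.56, at least 2.44-fold higher. In the end-stage mutant pool they read 197 and 90.7. Of the CD3 genes of the T cell receptor complex, Cd3g read 97.9 in the onset mutant and 81.3 in the onset wild-type pool (adjusted p = 0.713) and the dimmer Cd3d 25.5 and 17.3 (adjusted p = 0.823), and Cd3e was detected on neither onset array. Of 27 T and NK cell genes with a named probe, 15 were members, 10 of them higher and 5 lower, beside 46% and 53.9% of all genes. Their median was 0.15 (0.03 with neqc's noise), with a summed intensity of 3064 in the onset mutant pool and 1339 to 2623 in the wild-type pools. The difference between the CD8 and CD3 genes was not itself tested. Of the B cell list, Cd37 rose by 1.58 ± 0.24 (adjusted p = 0.0455) but Ms4a1 and Cd79b were detected on neither onset array, and of the 12 neutrophil and monocyte members 0 rose, with S100a8 at 320 in the onset mutant and 286 in the onset wild-type pool.

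**Figure D3:**
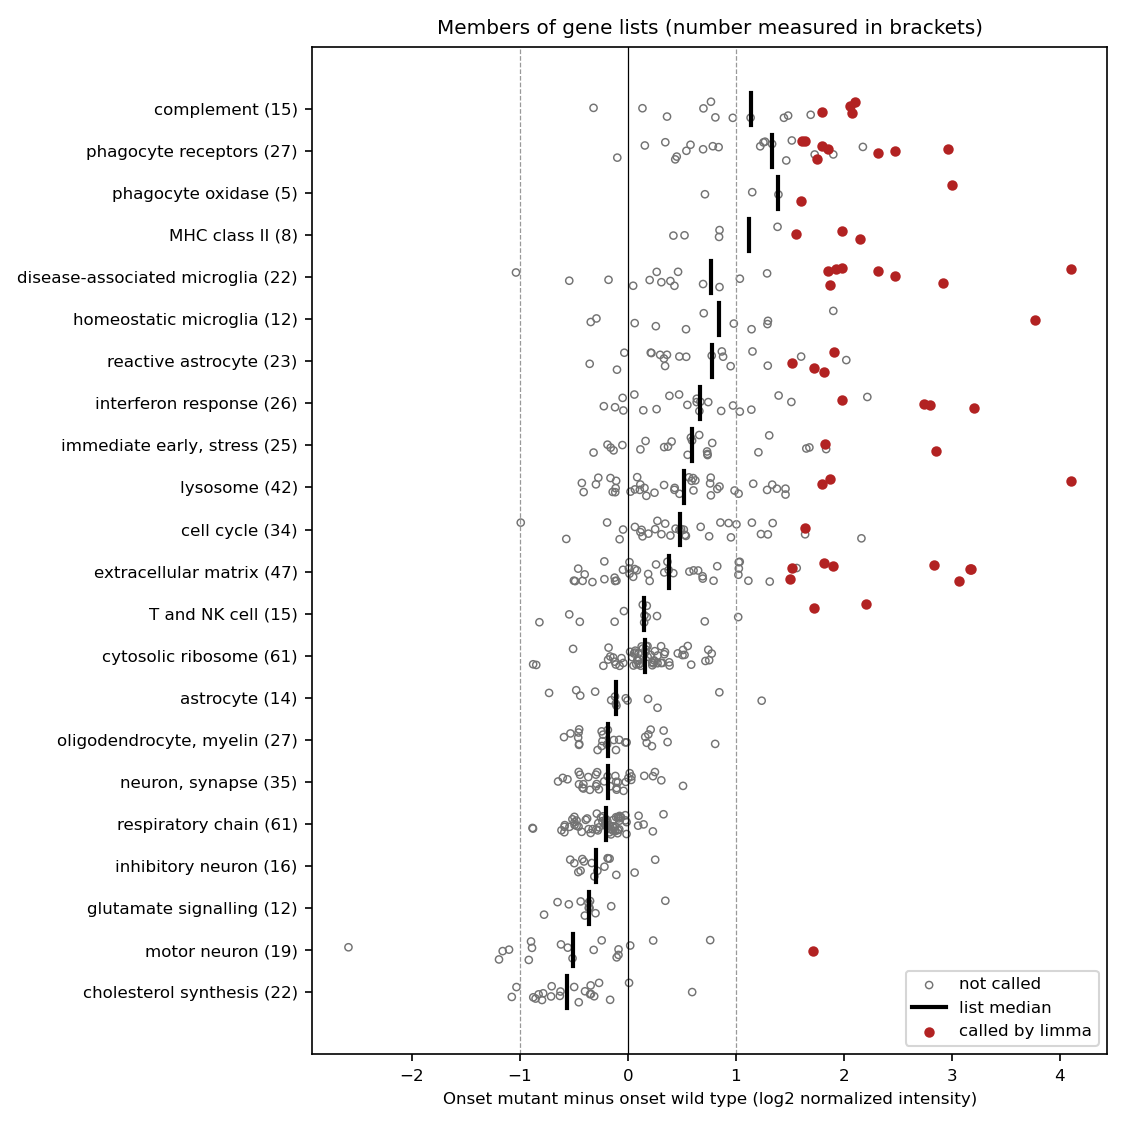
Onset mutant minus onset wild-type difference (log2 normalized intensity) of the members of 22 gene lists, with black bars at list medians, red points for genes called by limma and dashed lines at 2-fold. Phagocyte, complement and MHC class II lists lie mostly to the right of 0, cholesterol synthesis and motor neuron lists mostly to the left, and the respiratory chain list is narrow and shifted by −0.20.

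Reactive astrocyte genes were higher, general astrocyte genes were not. The calcium-binding protein gene S100a11 had 3359 in the onset mutant pool, against 968, 613 and 552 in the onset, presymptomatic and end-stage wild-type pools (limma 2.36 ± 0.33, adjusted p = 0.0379). Timp1, an inhibitor of matrix proteases, had 4957, against 1471, 942 and 913 (2.25 ± 0.32, adjusted p = 0.0381), and the hyaluronan receptor gene Cd44 and the membrane protein gene Emp1 rose by 1.56 and 1.95 on the log2 scale. Of 23 members 8 were at least 2-fold higher, beside 3.63% of all genes, and 0 lower, with a median of 0.78 (0.51 with neqc's noise). Of the 14 general astrocyte members, 10 were lower and 4 higher, beside 53.9% and 46% of all genes. Below all 3 wild-type pools lay 9 and above them 3, beside 33.7% and 29.4% of all genes. The median was −0.11. Gja1, the connexin gene, read 7127 in the onset mutant and 6321 in the onset wild-type pool, and S100b 8830 and 9028. The zinc- and copper-binding metallothionein gene Mt1 rose by 1.70 ± 0.23 (adjusted p = 0.0334), with 4294 in the onset mutant pool and 1297 to 1507 in the wild-type pools, while the antioxidant list it belongs to had a median of 0.01 over 45 members.

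Matrix genes rose in 8 of 47 members, or in 7 of the 46 detected on both arrays. Cthrc1, a secreted collagen-associated protein, had 878 in the onset mutant pool, against 95.6, 79.6 and 38.9 in the onset, presymptomatic and end-stage wild-type pools (limma 3.48 ± 0.33, adjusted p = 0.0142). Thbs2, thrombospondin 2, had 495, against 48.0, 26.5 and 9.63 (3.70 ± 0.39, adjusted p = 0.0227), and Postn, periostin, 478, against 49.2, 65.6 and 25.8 (3.05 ± 0.31, adjusted p = 0.0188). Mmp12, the elastase of macrophages, was detected at 165 in the onset mutant pool and lay between −3.01 and 1.27 in the wild-type pools. It was at least 5.78-fold higher in the pair, and became a member through the mutant array alone. Lrrc15, a membrane protein of matrix-making cells, showed the same pattern, with 138 against 4.77 to 7.12 and a bound of 4.90-fold. Fmod and Col18a1 also rose, by 1.85 and 1.71. The matrix list had 15 members at least 2-fold higher, beside 3.63% of all genes, and 0 lower. Its median was 0.38 (0.20 with neqc's noise). Of the 18 meningeal and fibroblast members, 11 were higher and 7 lower, beside 46% and 53.9% of all genes. By 2-fold or more, 2 were higher, beside 3.63% of all genes, and 0 lower, and 1 rose. Above all 3 wild-type pools lay 9 and below them 1, beside 29.4% and 33.7% of all genes. The median was 0.09, with Dcn at 9342 in the onset mutant and 10306 in the onset wild-type pool.

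Genes known from injured nerves and axons were uneven. Of 24 members, 5 were higher by 2-fold or more, beside 3.63% of all genes, and 0 lower. In limma 3 rose (Ngfr, Atf3 and Gadd45a), beside 0.894% of all genes. The median was 0.20 (0.04 with neqc's noise). Ngfr, the p75 neurotrophin receptor, had 3334 in the onset mutant pool, against 444, 280.2 and 277 in the onset, presymptomatic and end-stage wild-type pools (8.18-fold in the pair; limma 3.41 ± 0.30, adjusted p = 0.0123). Ngfr also marks Schwann cells, whose other 8 members differed between −0.59 and 0.37 within the pair. The Schwann and root list was higher in the onset wild-type pool than in the presymptomatic and end-stage ones, by medians of 0.70 and 0.61. Atf3, a transcription factor switched on in injured neurons, had 503, against 63.0, 18.8 and 25.6 (3.44 ± 0.41, adjusted p = 0.029), and the growth arrest gene Gadd45a 1687, against 503, 483 and 399.5 (1.90 ± 0.23, adjusted p = 0.0293). Fos and Jun, immediate early genes, were 3.57- and 3.14-fold higher in the pair without passing (adjusted p = 0.0747 and 0.0621). Of 25 immediate early and stress members 7 were at least 2-fold higher, beside 3.63% of all genes, and 0 lower, with a median of 0.59.

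Cell division genes were higher in 29 of 34 members, beside 46% of all genes. Of the 34, 6 were detected on the mutant array alone and so favoured a higher value there. The 28 detected on both arrays had a median of 0.39, and 8 of them were at least 2-fold higher. Ccnd1, cyclin D1, rose by 1.78 ± 0.24 (adjusted p = 0.0334), with 2595 in the onset mutant pool and 689.9 to 883 in the wild-type pools. Cdk1, the mitotic kinase, was 4.48-fold higher in the pair, at 187 against 30.1, but the presymptomatic wild-type pool read 69.2 and the end-stage one 10.9, and it did not pass (adjusted p = 0.171). In the list 8 were at least 2-fold higher and 0 lower, with a median of 0.48 (0.08 with neqc's noise), and 1 rose.

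Most motor neuron genes were lower, and none of the lower ones passed in limma. Chodl, a marker of fast motor neurons in mice, had 15.8 in the onset mutant pool, where it was not detected, against 167, 262 and 69.2 in the onset, presymptomatic and end-stage wild-type pools. It was at least 6.01-fold lower in the pair (limma −2.53 ± 0.53), and was already low in the presymptomatic mutant pool, at 29.5. Chodl became a member through the onset wild-type array alone. Slc5a7, the choline transporter that feeds acetylcholine synthesis, had 30.4, against 79.3, 222 and 103 (2.29-fold lower, adjusted p = 0.189). Calcb, a neuropeptide of motor and sensory neurons, had 129.8, against 286, 348 and 493 (2.23-fold lower, adjusted p = 0.135). In each of these genes the onset mutant pool was below all 3 wild-type pools. The light and medium neurofilament genes were 1.86-fold (Nefl) and 1.85-fold (Nefm) lower in the pair, with Nefl at 7345 in the onset mutant pool and 13308 to 19253 in the wild-type pools, and the related filament gene Prph was 1.89-fold lower (adjusted p = 0.14, 0.135 and 0.138). Slc18a3, the vesicular acetylcholine transporter, read 430.4 at onset, against 610.1, 839 and 1006, and 255 in the end-stage mutant pool.

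Of 19 motor neuron members, 15 were lower and 4 higher, beside 53.9% and 46% of all genes. By 2-fold or more, 4 were lower and 1 higher, beside 0.579% and 3.63% of all genes. Below all 3 wild-type pools lay 12, beside 33.7% of all genes. The median was −0.51, but −0.32 over the 17 detected on both arrays and −0.12 with neqc's noise. Gfra1, the receptor of the growth factor GDNF, went the other way and had 1565 in the onset mutant pool, against 506, 378 and 422 in the onset, presymptomatic and end-stage wild-type pools and rose by 1.88 ± 0.25 (adjusted p = 0.0334). Of the other neuronal lists, 26 of 35 neuron and synapse members were lower (median −0.19), 14 of 16 inhibitory neuron members (median −0.30) and 11 of 12 glutamate signalling members (median −0.36), beside 53.9% of all genes, with 0 called and 0 at least 2-fold lower. With neqc's noise these medians were −0.09, −0.15 and −0.19. Stmn2, a growth-associated microtubule protein, read 2149 in the onset mutant pool and 3371 to 4819 in the wild-type pools, and Snap25 overlapped with the wild-type pools. Oligodendrocyte and myelin genes were lower in 19 of 27 members by a small amount and higher in 8, beside 53.9% and 46% of all genes. Below all 3 wild-type pools lay 13 and above them 2, beside 33.7% and 29.4% of all genes. The summed intensity was 56819 in the onset mutant pool and 67115 to 82623 in the wild-type pools. The median was −0.19 (−0.09 with neqc's noise), and 0 were at least 2-fold apart either way. Mbp read 1571 in the onset mutant pool and 638 to 2451 in the wild-type pools.

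Beside 53.9% of all genes, 20 of 22 cholesterol synthesis members were lower. Beside 33.7% of all genes, 20 of the 22 lay below all 3 wild-type pools. Their median was −0.56, and 2 were at least 2-fold lower. Tm7sf2, a sterol reductase, had 229.9 in the onset mutant pool, against 477, 690.3 and 496 in the onset, presymptomatic and end-stage wild-type pools (2.11-fold lower; limma −1.33 ± 0.28, adjusted p = 0.118). Idi1, which isomerizes the isoprene unit, had 537, against 1101, 1527 and 782, and Fdps, which makes farnesyl diphosphate, 993, against 1863, 2232 and 1655 (adjusted p = 0.295 and 0.215). The exceptions were the regulators Srebf1 (difference 0.60) and Srebf2 (0.01). None of the 22 passed as a single gene. The wild-type pools were unequal for the list too, with medians of 0.28, −0.04 and −0.21 in the presymptomatic, onset and end-stage pools relative to their own mean, and −0.63 in the onset mutant pool. The sterol regulatory core TCACNCCAC was in 0 of the 18 members with a promoter in the table on either strand, and in 0.974% of all promoters. In fatty acid metabolism the desaturase gene Scd had 478 in the onset mutant pool, against 1049, 2615 and 1455 (2.22-fold lower, adjusted p = 0.189), and Acsl1, which activates fatty acids, was 2.10-fold lower (adjusted p = 0.152). Genes for lipid efflux and storage leaned the other way, with a median of 0.33 over 20 members (0.20 with neqc's noise). Among them the apolipoprotein gene Apoc1 was 5.39-fold higher (adjusted p = 0.062) and the lipid droplet coat gene Plin2 2.38-fold higher (adjusted p = 0.0906).

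Respiratory chain genes were lower in 56 of 61 members by a small amount, beside 53.9% of all genes. The median was −0.20, 0 were 2-fold apart, and 44 lay below all 3 wild-type pools, beside 33.7% of all genes. The complex I gene Ndufb11 read 2129 in the onset mutant pool, against 3306, 3322 and 3314 in the onset, presymptomatic and end-stage wild-type pools, and Ndufa7 207, against 374, 512 and 494, with adjusted p = 0.343 and 0.146. The wild-type medians of the list lay between −0.06 and 0.05 relative to their own mean, against −0.27 in the onset mutant pool. Cytosolic ribosomal genes were slightly higher in 48 of 61 members (median 0.16), beside 46% of all genes.

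**Figure D4:**
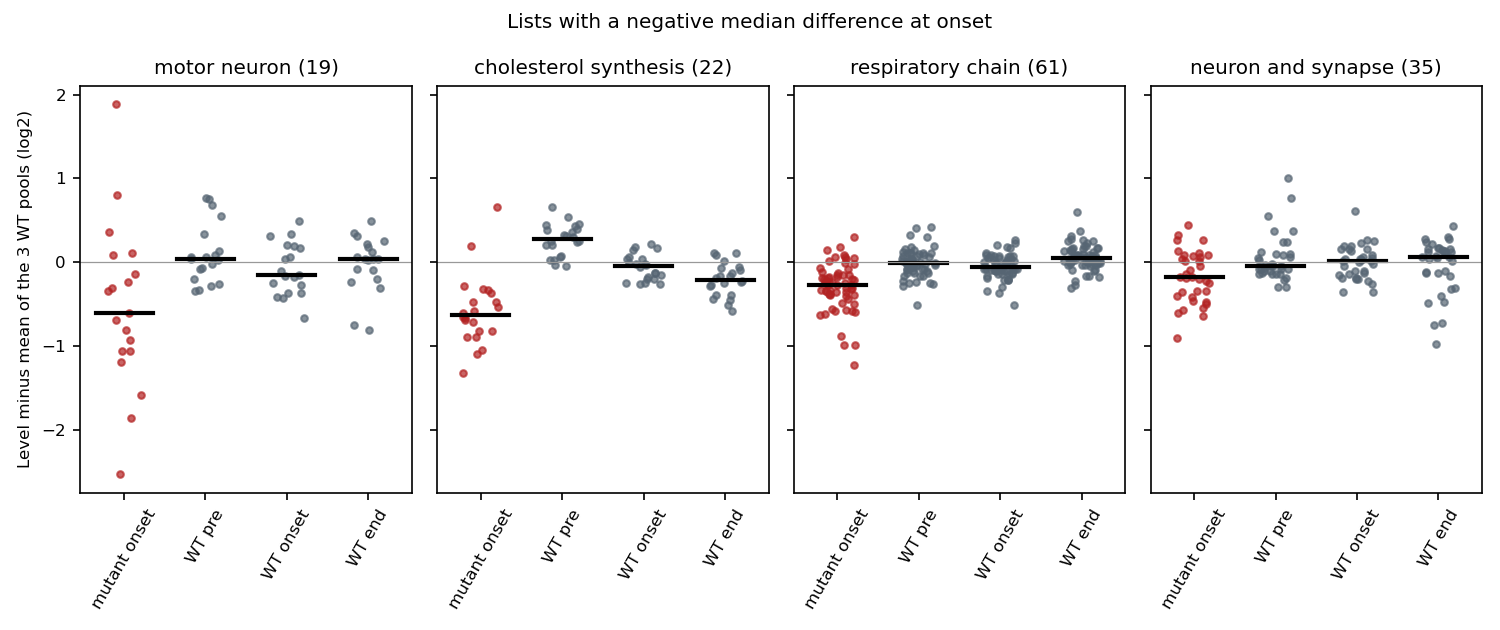
Level of each member relative to its mean over the 3 wild-type pools (log2 normalized intensity), in the onset mutant pool (red, left) and the presymptomatic, onset and end-stage wild-type pools (grey), with bars at medians, for motor neuron, cholesterol synthesis, respiratory chain, and neuron and synapse genes. The onset mutant median is −0.61, −0.63, −0.27 and −0.18 in the 4 lists, lowest of the 4 pools in each; 1 motor neuron gene, Gfra1, stands far above 0.

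Genes linked to human ALS and to protein quality control differed little. Of 22 ALS-linked members the median was −0.05, 0 passed, and 1 was 2-fold apart, the RNA-binding protein gene Hnrnpa2b1 (1.03, adjusted p = 0.577). Chaperones and ubiquitin, proteasome and autophagy genes had medians of −0.04 over 39 and −0.06 over 63 members, with 0 called. Iron and copper genes had a median of 0.17 over 23 members (0.03 with neqc's noise), and 5 were at least 2-fold higher, beside 3.63% of all genes, with 0 called. Among those the ceruloplasmin gene Cp, a copper-carrying ferroxidase, read 360.2 in the onset mutant pool, against 114, 53.7 and 65.8 in the onset, presymptomatic and end-stage wild-type pools (3.04-fold, adjusted p = 0.0701), and the haem oxygenase gene Hmox1 392, against 165, 161 and 183 (2.35-fold, adjusted p = 0.135).

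Markers of vessels, ependyma and muscle had no called gene. The 14 endothelial and pericyte members had a median of −0.32 (−0.16 with neqc's noise) and a summed intensity of 12671 in the onset mutant pool, against 13928 to 16897 in the wild-type pools. The 7 ependymal members had a median of −0.24 and the 22 skeletal muscle members −0.10, or −0.07 and −0.04 with neqc's noise. Summed intensities of the muscle list were 8640 in the onset mutant and 8636 in the onset wild-type pool, with 6361 and 11749 in the other wild-type pools.

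Several genes that rose are in none of these lists. Hk3, a hexokinase of white blood cells, had 223 in the onset mutant pool, against 15.2, 8.11 and 5.41 in the onset, presymptomatic and end-stage wild-type pools (limma 3.07 ± 0.24, adjusted p = 0.0122). Arl11, a small GTPase of the Arf family, had 314, against 38.6, 15.0 and 18.6 (3.07 ± 0.31, adjusted p = 0.0188), but 73.3 in the end-stage mutant pool. Tbxas1, thromboxane synthase, rose by 2.26 ± 0.24 (adjusted p = 0.0235), the RNA-editing enzyme gene Apobec1 by 2.01 ± 0.22 (adjusted p = 0.0255), the aminopeptidase gene Anpep by 2.26 ± 0.29 (adjusted p = 0.0334) and Plbd1, a phospholipase B-like gene, by 2.98 ± 0.40 (adjusted p = 0.0344). Lpar3, a lysophosphatidic acid receptor, was detected at 118 in the onset mutant pool and not in the onset wild-type pool (14.3), at least 4.05-fold higher.

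Of the genes lower in the pair by the most, few had steady wild-type values. The cartilage collagen gene Col2a1 had 28.9 in the onset mutant pool, against 116, 288 and 43.8 in the onset, presymptomatic and end-stage wild-type pools (3.26-fold lower, adjusted p = 0.354). Cntn4, a contactin of axons, had 30.6, against 116, 108 and 52.6 (3.16-fold lower, adjusted p = 0.135), and the neuropeptide Y receptor gene Npy5r 32.4, against 100.2, 71.8 and 76.5 (2.71-fold lower, adjusted p = 0.0963). Ywhag, a 14-3-3 protein of neurons, had 378, against 799, 1281 and 851 (2.13-fold lower, adjusted p = 0.135). Cryba2 and Inpp4b were detected in the onset wild-type pool alone of the pair, and were at least 2.29- and 2.20-fold lower. Neither was called by limma. Alas2, of red blood cell precursors, was 2.47-fold lower. Among the 8 blood members 7 were lower and 1 higher, beside 53.9% and 46% of all genes. Their summed intensity was 50730.0 in the onset mutant pool and 45876 to 57641 in the wild-type pools.

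The onset differences were set beside those of the end-stage pair, which shares no array with the onset pair, though all 6 arrays were normalized together. Of the 288 genes at least 2-fold higher at onset, 233 had an end-stage difference of 2-fold or more in the same direction, 0 had one in the opposite direction, and 176 had the larger difference at end stage. Ngfr differed by 3.03 at onset and 4.15 at end stage, S100a11 by 1.91 and 3.19, and Sectm1b by 2.74 and 4.13. Cd68 and Fcrl2 differed by close to the same amount at both stages (4.10 and 4.27, 3.77 and 3.75). Of the 46 genes lower at onset, 10 had an end-stage difference of 2-fold or more in the same direction and 2 in the opposite one. Among all 7943 genes measured in the end-stage pair, 550 were at least 2-fold higher and 270 lower. At onset fewer genes were 2-fold apart (4.21%) than in the presymptomatic pair (10.9%) or the end-stage pair (10.3%).

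**Figure D5:**
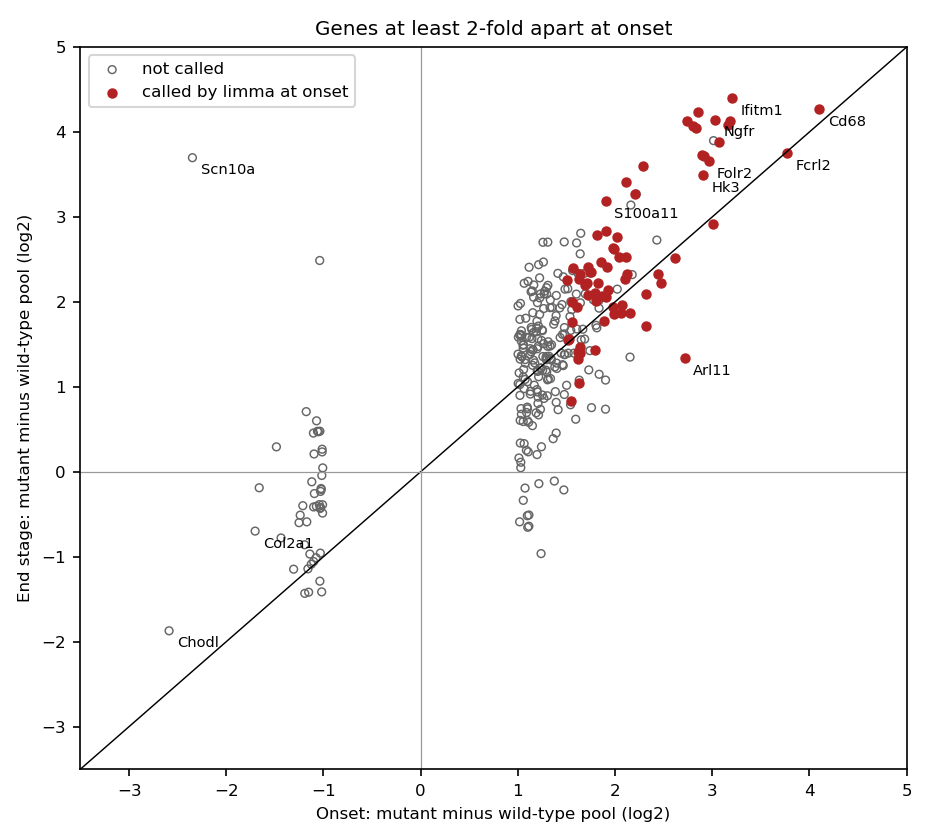
Mutant minus wild-type difference at end stage (vertical axis) against that at onset (horizontal axis), both log2 normalized intensity, for the 288 genes higher and the 46 lower by 2-fold or more at onset. Red points are genes called by limma at onset and the diagonal marks equal differences; most genes on the right also lie above 0 at end stage, while Scn10a lies at −2.35 at onset and 3.70 at end stage.

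Some genes were 2-fold apart at onset and less so at end stage. Tubb2b, a tubulin of young neurons, had 1309.5 in the onset mutant pool, against 459.8 in the onset wild-type pool, and 768 in the end-stage mutant pool, against 478 in the end-stage wild-type pool (limma at onset, adjusted p = 0.082). Rab7b, of the endosomal pathway, rose by 1.55 ± 0.23 in limma (adjusted p = 0.0426) and differed by 0.84 at end stage. In the fit over all arrays, the onset mutant pool differed from the end-stage mutant pool in 0 of 12711 probes (0%), with adjusted p-values from 0.485 upwards, while 1199 probes (9.43%) had an unadjusted p below 0.05 and the authors' normalized values gave 791 calls. Against the presymptomatic mutant pool 385 probes were higher (3.03%) and 84 lower (0.661%). Both contrasts set 1 array against 1 array, with the spread supplied by the wild-type pools alone. The 469 calls against the presymptomatic mutant pool became 0 with neqc's noise, with no background correction, with no filter on dim probes or without the onset wild-type pool. The presymptomatic mutant array had the fewest detected probes and stood apart in abundant genes, with the actin gene Actb at 1941 there, 8330 in the onset mutant pool and 4991 to 7594 in the wild-type pools. The part of that array in these counts was not tested. Without it in the normalization and the fit, 80 of the 87 calls of the onset mutant pool against the wild-type pools were made and no others.

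Of the 3192 member probes without a gene name, 53 were higher and 36 lower by 2-fold or more in the onset pair. Among named genes these shares were 3.63% and 0.579%. In limma 15 of the unnamed member probes rose, beside 0.684% of all probes tested.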

How the data were processed

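Cord RNA of 5 rats per pool was labelled for 1 array per genotype and stage, per the labels. The deposited tables hold 2 quantities per array. The intensity values are non-normalized bead summaries made by the authors with BeadStudio 3.2.6, per the submitters' processing notes, and the deposited detection p-values beside them state how far a probe lies above the negative controls. The authors' normalized intensities, deposited separately, served as an alternative. Probe IDs were sorted as text and set against rows in file order. They were then named from the platform annotation, where 13192 probes had 1 symbol, 0 several and 9034 none. The members and gene lists were chosen with earlier results of these data known. 0 per-sample columns were left out.

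Background was corrected with normexp, with noise taken per array from the regression of intensity on the normal quantile of the detection p between 0.05 and 0.95. An offset of 16 was added, and the arrays were quantile normalized and set on the log2 scale. neqc, named as an alternative, inferred a noise SD of 91.8 to 159 per array, against 6.52 to 8.46 from the regression. That regression had an R2 of 0.0096 to 0.0212, and of 0.908 to 0.973 over probes under 50 units. The noise estimate decided the choice, but its effect on the number of calls was known. A gene is its member probe with the highest mean over the 6 arrays.

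limma 3.58.1 in R 4.3.3 fitted the wild-type pools as 1 group of 3 and each mutant pool as its own group, with Benjamini-Hochberg adjustment over the 12711 probes detected on at least 1 array. The fit was tested on simulated data of 12711 probes for the onset mutant pool against the 3 wild-type pools: of 50 changed probes each, 12% were called at 2-fold and 96% at 4-fold, with 10 false calls of 12511. The simulated arrays followed the model of the fit, with the mutant pool varying as the wild-type pools do. They held no effects of stage or background correction, so the simulation cannot check those assumptions. Genes named are the largest differences, bounds, gaps and smallest p-values, the largest differences of each list with its defining markers, and Sod1. The number of arrays limits the precision.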

Additional observations from a re-analysis of the deposited data

Results flagged for a closer look

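The difference between stages was not tested for the following genes, each of which was at least 2-fold apart in opposite directions in 2 stage-matched pairs of 1 pool each. Flnc, filamin C, differed by 1.90 on the log2 scale at onset and by −2.50 in the presymptomatic pair. Tagln2, an actin-binding protein gene, differed by 1.54 at onset and by −3.98 in the presymptomatic pair, where the mutant pool read 2.37 units. Igflr1 differed by −1.25 at onset and by 1.01 in the presymptomatic pair. Scn10a, a sodium channel of sensory neurons, differed by −2.35 at onset and by 3.70 at end stage. Of the 288 genes at least 2-fold higher at onset, 37 were at least 2-fold lower in the presymptomatic mutant than in the presymptomatic wild-type pool. Of the 46 lower at onset, 2 were higher there. Among all 7892 genes measured in the presymptomatic pair, 646 were at least 2-fold lower and 214 higher. The presymptomatic mutant array had the fewest detected probes, and its part in these opposite differences was not tested.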

How the results depend on the processing

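Each array stands for 1 pool, so the onset pair has no replicate, and the limma calls rest on the spread of 3 wild-type pools. Differences of dim probes depend on the background correction. All 87 called probes kept a positive difference in each setting in which they were tested, but the number called varied. The onset difference rests on 1 stage-matched pair, so pairing by stage leaves it no residual degrees of freedom. A paired test of genotype over all stages was not run.

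The pair's counts of 288 genes at least 2-fold higher and 46 lower became 149 and 15 with neqc's noise, 186 and 10 with an offset of 50, 719 and 436 at 1.5-fold, and 96 and 4 at 3-fold. They became 468 and 199 against the presymptomatic wild-type pool and 489 and 176 against the end-stage one. Genes lower numbered 25 with a 75th-percentile shift, 26 with no normalization, 99 in the authors' normalized values and 74 against the mean of the 3 wild-type pools. Genes 2-fold beyond all 3 wild-type pools, 212 above and 14 below, became 126 and 6 with neqc's noise and 140 and 4 with an offset of 50, and those below numbered 9 with the percentile shift and 38 in the authors' values.

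Among lists with 3 or more measured members, the 10 with a median of at least 0.5 became 5 with neqc's noise. The 5 with −0.3 or less became 1 with neqc's noise, 2 with an offset of 50 and 8 against the presymptomatic wild-type pool. With IDs in deposited order, where names do not match probes, these counts were 1 and 2, and medians changed sign for complement (−0.053), phagocyte receptors (−0.049), resting microglia (−0.15), lysosome (−0.11), interferon (−0.042), class I (−0.10), cytokines (−0.12), reactive astrocytes (−0.13), matrix (−0.073) and cell cycle (−0.012).

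Of 87 probes called against the wild-type pools, 0 were called with neqc's noise, with no background correction or with no filter on dim probes. Counts were 25 with an offset of 50, 197 with the percentile shift, 248 in the authors' values and 194 with a trended robust prior. Leaving out 1 wild-type pool gave 0 (onset) to 49 (presymptomatic), with 21 without the end-stage pool. Chosen after seeing the data, noise from probes under 50 units gave 87 calls, and leaving out the presymptomatic mutant array gave 80. Against the presymptomatic mutant pool, 469 probes became 0 with neqc's noise, with no background correction or with no filter, 144 with an offset of 50, 883 with the percentile shift, 719 with no normalization and 2246 in the authors' values. Without 1 wild-type pool they numbered 0 (onset) to 717 (end stage). Against the end-stage mutant pool, 0 became 791 in the authors' values. The causes were not tested.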
